A study of Mus musculus with 8 samples.

Results

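Eph receptors, ephrins, Slits, Robo receptors and the srGAP proteins that act downstream of Robo were examined as a group of 31 axon guidance genes. They were named by family membership, with earlier results of these data known. Of the 31 genes, 30 were measured, by 33 probe sets that the platform annotation gives to a single symbol. In all, 19938 genes were tested on the same arrays. Ephb2 was not analysed here. The tissue was mouse brain cortex of a mixed strain background, taken at embryonic day 16, and its RNA was read on 8 whole-transcript arrays. The VEGF arrays, called VEGF 1 to VEGF 4 by their replicate number, are labelled as bitransgenic GFAP-tTA: TetO-VEGF-A164 embryos with induced overexpression of VEGF. In these a tetracycline-controlled transactivator under a GFAP promoter drives the VEGF-A164 transgene, so the transgene follows the cells in which that promoter is active. The comparison arrays, control 1 to control 4, are labelled as wild type and as lacking TetO-VEGF-A164, and the sources used here do not say whether they carry the transactivator. Nothing in the labels says whether an array holds a single embryo or a pool, or which embryos share a litter, so a p-value covers no more than the spread among these arrays, which may be technical.

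Eph receptors are receptor tyrosine kinases that bind ephrins on neighbouring cells. EphA receptors mostly bind ephrin-A ligands, which are held in the membrane by a lipid anchor, and EphB receptors mostly bind the transmembrane ephrin-B ligands, with signals running into both cells. Slits are secreted proteins that bind Robo receptors and repel axons and migrating neurons, and srGAP proteins bind the inner part of Robo. In the embryonic cortex both systems take part in the mapping of thalamic and cortical axons, in midline crossing and in neuronal migration, and ephrin-B2 with EphB4 marks arteries and veins.

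All values are on a logarithmic scale read here as log2, and in the deposited values every probe set has a median of 0 across the 8 arrays. A value therefore says how far an array lies above or below the middle of its probe set, and no level of a gene, no comparison of levels between genes and no presence or absence of a cell type marker can be read from it. Differences are VEGF minus control, with the standard error (SE) of limma's moderated fit. Array medians lay between -0.0091 and 0.015. Xist gave a female pattern in VEGF 2, VEGF 3 and control 3. Vegfa, read by 1 probe set, averaged 0.014 ± 0.064 in the VEGF arrays and -0.039 ± 0.081 in the control arrays (SD, n = 4 each). The exact two-sided permutation test of this difference gave p = 0.343, so Vegfa gives no check of the labels, and each array is called by its label.

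No guidance gene passed limma's test adjusted over all genes with the Benjamini-Hochberg method, nor did any of the other genes (0 of 19938, 0%). At an unadjusted limma p under 0.05 there were 9 guidance genes among the 30 (30%), against 2484 of all genes (12.5%). The methods' t-test gave 2114 genes at an unadjusted p under 0.05 and 0 after adjustment. Since the values are of bulk tissue, fewer cells of a type and less RNA per cell cannot be told apart. On the lower side were Epha3, Epha4, Epha5, Efna3, Efnb2, Slit1 and Robo2, which is 7 of 30 (23.3%) against 7.84% of all genes. On the higher side were Slit2 and Robo3, 2 of 30 (6.67%) against 4.62% of all genes. The median difference over the 30 genes was -0.040, against -0.010 over all genes, with 20 of the 30 below 0 and 10 above. Of all 19938 genes, 11310 were below 0 and 8628 above. Complete separation of the VEGF arrays from the control arrays occurred in 2 of the 30 genes (6.67%), Efna3 and Slit1, both on the lower side, which is close to the 6.84% of all genes that separated. On the lower side alone 4.71% of all genes separated, and on the higher side 2.13%, where no guidance gene did. The members spread over the 8 arrays by a median range of 0.32, from 0.12 in Efna2 to 0.79 in Slit2, against 0.23 for all genes.

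**Figure D1:**
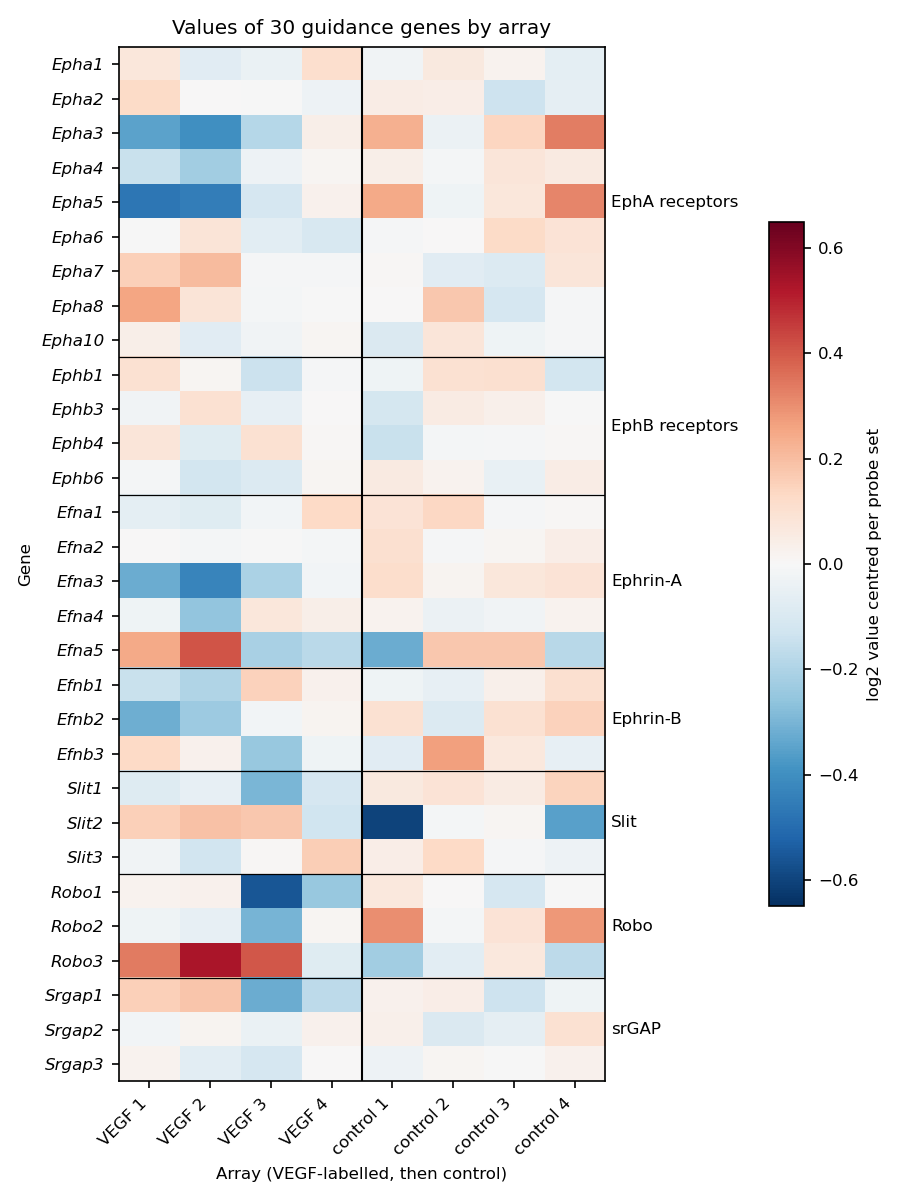
Centred log2 values (colour) of the 30 measured guidance genes (rows, by family) on the 8 arrays (columns), with VEGF arrays left of the line and control arrays right of it. Epha3, Epha5 and Efna3 are at -0.32 or lower in VEGF 1 and VEGF 2, and Robo3 is at 0.34 or higher in VEGF 1, VEGF 2 and VEGF 3.

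**Figure D2:**
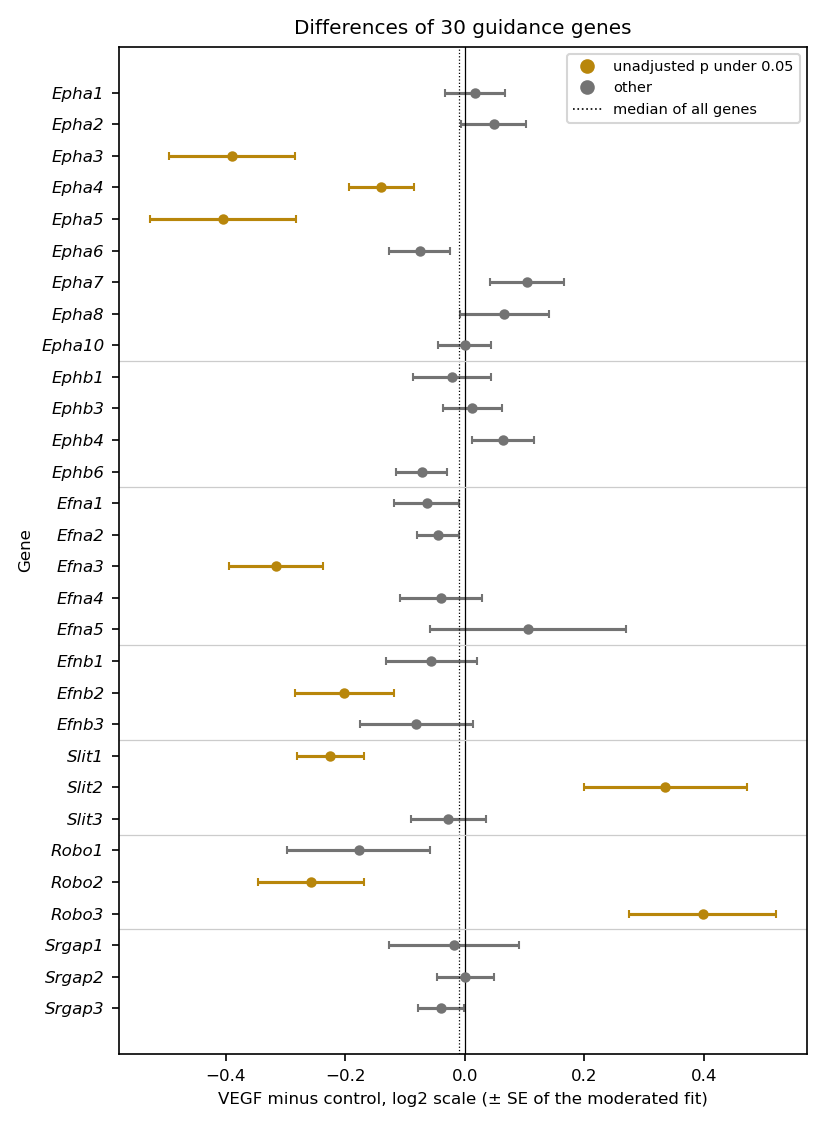
VEGF minus control difference on the log2 scale (horizontal axis) for the 30 guidance genes by family, with bars for the SE of limma's moderated fit. The 9 genes at an unadjusted p under 0.05 are coloured, and the dotted line is the median of all genes at -0.010.

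The EphA receptors Epha5 and Epha3 held the lowest differences of the 30 genes. The median over the 9 EphA receptors was -0.00020, with 4 above 0 and 5 below. Epha5, a receptor with graded expression in maps of axons, was at -0.47, -0.45, -0.11 and 0.027 in VEGF 1 to VEGF 4, against 0.25, -0.027, 0.074 and 0.32 in control 1 to control 4. VEGF 1 and VEGF 2 lay far below every control array, while VEGF 4 lay within the control range. The difference was -0.40 with an SE of 0.122, or 0.756-fold if the base is 2 (limma, unadjusted p = 0.00904, adjusted p = 0.264). Epha3, another receptor of ephrin-A ligands, took similar values, with -0.35, -0.40, -0.19 and 0.038 in the VEGF arrays against 0.23, -0.038, 0.14 and 0.33 in the control arrays. Its difference was -0.39 with an SE of 0.106, or 0.763-fold (limma, unadjusted p = 0.00493, adjusted p = 0.243). The groups met where VEGF 4 and control 2 crossed, in both receptors. Without VEGF 4 the differences were -0.50 in Epha5 (limma, adjusted p = 0.124) and -0.48 in Epha3 (adjusted p = 0.101). Without control 1 they were -0.37 in Epha5 (limma, adjusted p = 0.632) and -0.37 in Epha3 (adjusted p = 0.616).

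Epha4, which binds ephrins of both classes and acts in cortical migration and in spinal and thalamic axons, was likewise lowest in VEGF 1 and VEGF 2, with smaller values. It was at -0.15, -0.22, -0.035 and 0.012 in the VEGF arrays, against 0.038, -0.012, 0.080 and 0.057 in the control arrays, so that VEGF 4 and control 2 again crossed. It differed by -0.14 with an SE of 0.054 (limma, unadjusted p = 0.0296, adjusted p = 0.350). The other 6 EphA receptors did not reach an unadjusted p of 0.05. Epha6 differed by -0.075 and Epha10, which lacks kinase activity, by -0.00020. On the other side of 0 were Epha7, a receptor of cortical and thalamic axon maps, with 0.10, Epha8 with 0.066, Epha2 with 0.048 and Epha1 with 0.017. Epha7 was highest in VEGF 1 and VEGF 2, at 0.15 and 0.21, the arrays in which Epha3 and Epha5 were lowest, and Epha8 was highest in VEGF 1 at 0.25 and next highest in control 2 at 0.17. The 2 probe sets of Epha10 gave 0.039 and -0.040, so its mean near 0 joins values of opposite sign.

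Among the ephrin-A ligands Efna3 stood apart. This lipid-anchored ligand of EphA receptors was at -0.32, -0.43, -0.20 and -0.017 in VEGF 1 to VEGF 4, against 0.11, 0.017, 0.073 and 0.087 in control 1 to control 4. All 4 VEGF arrays lay below all 4 control arrays, though VEGF 4 and control 2 were close to each other. Means were -0.24 ± 0.18 in the VEGF arrays and 0.072 ± 0.040 in the control arrays (SD, n = 4 each). The difference was -0.32 with an SE of 0.079, or 0.803-fold (limma, unadjusted p = 0.00302, adjusted p = 0.243). The exact two-sided permutation test gave 0.0286, the smallest p that 4 arrays against 4 allow. Leaving out VEGF 4 gave -0.39 with an adjusted limma p of 0.0601, and leaving out control 1 gave -0.30 with an adjusted limma p of 0.616.

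The 4 remaining ephrin-A genes did not reach an unadjusted p of 0.05. Efna1, a ligand found on endothelium and on neurons, differed by -0.063, Efna2 by -0.045 and Efna4 by -0.040. Efna5, the ligand best known for repelling axons in thalamocortical and retinal maps, was at 0.25, 0.41, -0.21 and -0.17 in the VEGF arrays, against -0.32, 0.17, 0.17 and -0.18 in the control arrays. Both groups held high and low arrays, and the difference was 0.11 with an SE of 0.164, the widest SE of the 30 genes. It was -0.0076 without VEGF 2, 0.011 without control 1 and 0.20 without VEGF 3.

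The regions before the transcription starts of Epha3, Epha5, Efna3 and Robo3 are shown, since Epha3, Epha5 and Efna3 were low in the same arrays in which Robo3 was high. Each is the 250 bases before a start in RefSeq's annotation of GRCm38.p6, read 5′ to 3′ on the strand of the gene. These were Epha3 on chr16:63864176-63864425, Epha5 on chr5:84417383-84417632, Efna3 on chr3:89322940-89323189 (the farther upstream of the 2 starts listed) and Robo3 on chr9:37433176-37433425, all on the minus strand. Capitals mark the letters GGGCGG (a GC box), CAGATG or CAGCTG (E-boxes, the kind of site that neural bHLH factors bind) and TATAAA, on either strand.
Epha3: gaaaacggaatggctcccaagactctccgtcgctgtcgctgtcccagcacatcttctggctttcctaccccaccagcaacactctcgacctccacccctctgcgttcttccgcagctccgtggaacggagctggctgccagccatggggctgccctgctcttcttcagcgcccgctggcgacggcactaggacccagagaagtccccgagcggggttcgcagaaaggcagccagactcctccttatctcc
Epha5: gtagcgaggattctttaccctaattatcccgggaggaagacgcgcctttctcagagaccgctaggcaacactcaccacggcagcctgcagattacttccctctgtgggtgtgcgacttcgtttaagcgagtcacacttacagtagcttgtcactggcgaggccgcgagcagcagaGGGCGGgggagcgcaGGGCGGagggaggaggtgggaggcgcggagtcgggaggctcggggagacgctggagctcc
Efna3: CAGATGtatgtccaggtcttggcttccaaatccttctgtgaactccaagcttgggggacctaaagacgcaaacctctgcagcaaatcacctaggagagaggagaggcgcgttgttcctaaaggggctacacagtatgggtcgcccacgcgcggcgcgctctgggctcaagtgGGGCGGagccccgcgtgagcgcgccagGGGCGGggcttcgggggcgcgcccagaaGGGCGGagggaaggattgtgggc
Robo3: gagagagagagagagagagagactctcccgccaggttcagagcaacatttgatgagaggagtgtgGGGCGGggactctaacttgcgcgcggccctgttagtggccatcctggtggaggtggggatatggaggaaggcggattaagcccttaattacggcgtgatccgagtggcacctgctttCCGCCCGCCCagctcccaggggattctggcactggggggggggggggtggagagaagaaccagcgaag

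Epha3 held none of these motifs, Epha5 held 2 GC boxes, Efna3 held 3 GC boxes and 1 E-box of the CAGATG kind, and Robo3 held 3 GC boxes, of which a pair on the opposite strand overlap. The window of the other Efna3 start, not shown, held 3 GC boxes and no E-box of either kind. Of the 34 windows listed for 29 of the 31 guidance genes, 25 held a GC box (73.5%), against 32.7% of the 32851 windows of all genes. E-boxes of the CAGATG kind were in 8.82% of the guidance gene windows and 14.4% of all windows, and those of the CAGCTG kind in 11.8% and 13%. The TATAAA letters were in 8.82% and 12.4%. The median GC content was 64.2% in the guidance gene windows and 52.4% in all windows. A match of letters is a description of the window and not a site of binding.

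Of the ephrin-B ligands, which signal back into the cell that carries them, Efnb2 differed most. This ligand of arterial endothelium was at -0.32, -0.23, -0.018 and 0.018 in the VEGF arrays, against 0.098, -0.087, 0.097 and 0.15 in the control arrays. VEGF 1 and VEGF 2 were below all control arrays and VEGF 3 and VEGF 4 were within the control range. The difference was -0.20 with an SE of 0.083 (limma, unadjusted p = 0.0383, adjusted p = 0.376). Efnb1 differed by -0.056 and Efnb3, the ligand of the midline that holds back corticospinal axons, by -0.081, and neither reached an unadjusted p of 0.05. Efnb3 was lowest in VEGF 3, at -0.25, and highest in control 2, at 0.26.

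None of the 4 EphB receptors measured reached an unadjusted p of 0.05. Ephb4, the venous receptor of ephrin-B2, differed by 0.064, Ephb6, which lacks kinase activity, by -0.072, Ephb3 by 0.013 and Ephb1 by -0.022. The 2 probe sets of Ephb1, a receptor of the retinal axons that do not cross the midline, disagreed, with -0.15 and 0.10, and the value with the probe set of wider spread alone was 0.10. Of the pair that marks arteries and veins, Efnb2 was at -0.20 and Ephb4 at 0.064. From which cells of the bulk tissue these values come was not tested. The 10 endothelial markers, measured on the same arrays, had a median difference of -0.0086 with 0 of 10 at an unadjusted p under 0.05, against 12.5% of all genes. Their mean was lowest in VEGF 3, at -0.28, and in control 3, at -0.19. Efnb2 was lowest in VEGF 1 and VEGF 2. The part of endothelial cells in the Efnb2 values was not tested.

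**Figure D3:**
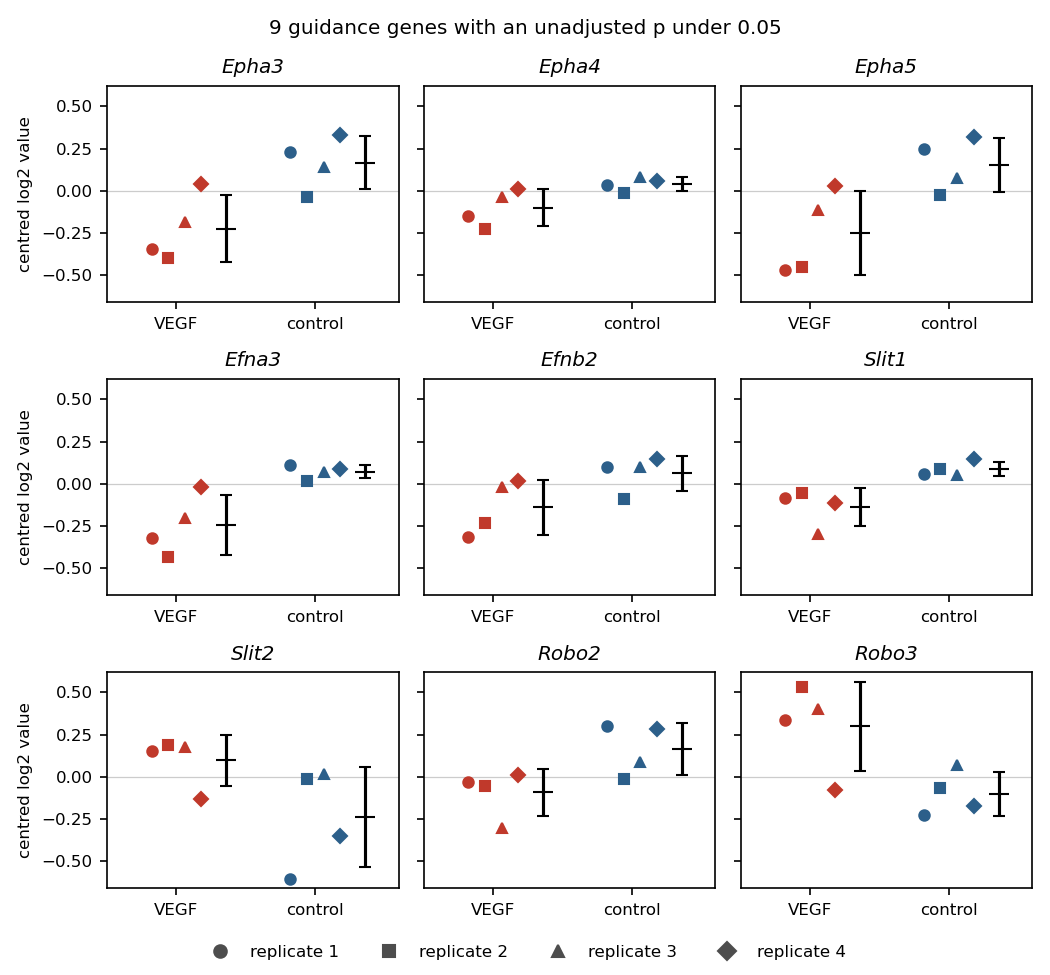
Centred log2 values (vertical axis) of the 9 guidance genes at an unadjusted limma p under 0.05, with VEGF arrays left and control arrays right in each panel, a symbol for each replicate number, and the mean with its SD (n = 4) in black. In Efna3 and Slit1 all VEGF arrays lie below all control arrays, and in the other 7 genes the groups overlap.

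Slit1 and Slit2 had differences of opposite sign. Slit1, a repellent of cortical and callosal axons, was at -0.083, -0.055, -0.30 and -0.11 in VEGF 1 to VEGF 4, against 0.061, 0.089, 0.055 and 0.15 in control 1 to control 4. Every VEGF array was below 0 and every control array above it, and VEGF 3 was the lowest. Means were -0.14 ± 0.11 in the VEGF arrays and 0.088 ± 0.042 in the control arrays (SD, n = 4 each). The difference was 0.856-fold, at -0.22 with an SE of 0.056 (limma, unadjusted p = 0.00281, adjusted p = 0.243). The exact two-sided permutation test gave 0.0286, again the smallest possible p. Unlike the low values of Epha3, Epha5 and Efna3, those of Slit1 included VEGF 4, and the difference was -0.23 without that array.

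Slit2, a repellent also made at the midline, was at 0.16, 0.19, 0.18 and -0.13 in the VEGF arrays, against -0.60, -0.015, 0.015 and -0.35 in the control arrays. VEGF 1, VEGF 2 and VEGF 3 were close together above all control arrays, and VEGF 4 was within the control range. The difference was 0.34 with an SE of 0.137, or 1.26-fold (limma, unadjusted p = 0.0364, adjusted p = 0.372). It rests largely on the low values of control 1 and control 4, and without control 1 it was 0.21 (limma, unadjusted p = 0.0868). Slit3 differed by -0.027 and spread over both groups.

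Robo3, the divergent receptor that lets commissural axons cross the midline, had the highest difference of the 30 genes. Its values were 0.34, 0.53, 0.40 and -0.078 in VEGF 1 to VEGF 4, against -0.23, -0.068, 0.068 and -0.17 in control 1 to control 4. VEGF 1, VEGF 2 and VEGF 3 were above every control array, while VEGF 4 lay among them. The difference was 0.40 with an SE of 0.122, or 1.32-fold (limma, unadjusted p = 0.00979, adjusted p = 0.266). Without VEGF 4 it was 0.52 with an SE of 0.078 (limma, adjusted p = 0.0633). Without control 1 it was 0.36 with an SE of 0.135 (limma, adjusted p = 0.632).

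The Slit receptors Robo1 and Robo2 were both below 0 on average. Robo2 was at -0.028, -0.052, -0.30 and 0.011 in the VEGF arrays, against 0.30, -0.011, 0.087 and 0.28 in the control arrays. The groups overlapped where control 2 lay below VEGF 4, and the difference in Robo2 was 0.837-fold, at -0.26 with an SE of 0.089 (limma, unadjusted p = 0.0177, adjusted p = 0.310). VEGF 3 was the lowest array and control 1 and control 4 were the highest. The difference was -0.21 without control 1 and -0.22 without control 4 (limma, unadjusted p = 0.0531 and 0.0523). Robo1, which interneurons and callosal axons use, was at 0.024, 0.028, -0.56 and -0.25 in the VEGF arrays, against 0.068, 0.0041, -0.11 and -0.0041 in the control arrays. Its difference of -0.18 with an SE of 0.120 (limma, adjusted p = 0.614) came from VEGF 3 and VEGF 4 and was -0.054 without VEGF 3. Epha3 and Epha5 were instead lowest in VEGF 1 and VEGF 2, though in VEGF 3 they too lay below every control array.

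The srGAP genes did not reach an unadjusted p of 0.05. Srgap1 was at 0.15, 0.18, -0.32 and -0.17 in the VEGF arrays, against 0.025, 0.044, -0.13 and -0.025 in the control arrays, and its difference was -0.018. As in Robo1, VEGF 3 and VEGF 4 were the lowest arrays. Srgap2, which slows neuronal migration and shapes spines, differed by 0.0013 and Srgap3 by -0.040. Both probe sets of Srgap3 were below 0, at -0.028 and -0.052.

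By array, VEGF 2 had the lowest value of 9 of the 30 genes and VEGF 3 of 7, while VEGF 1 and VEGF 4 had 2 each. Control 1 had the lowest value of 6 genes and control 4 of 0. VEGF 2 and control 4 each also had the highest value of 6 genes, and control 1 of 5. The interquartile range of the values was widest in VEGF 2, at 0.142, against 0.061 to 0.102 on the other arrays. The matching counts over all genes are not given here. The genes lowest in VEGF 2 included Epha3, Epha4 and Efna3, and those lowest in VEGF 3 included Slit1, Robo1, Robo2, Srgap1 and Efnb3.

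Other genes of the pathways were taken from a list of 35, of which 34 were measured. At an unadjusted limma p under 0.05 there was 1 gene on the higher side and there were 5 on the lower side, 6 of 34 against 12.5% of all genes, with 0 past the adjusted test and a median difference of -0.018. The adaptor Nck1, which links Eph receptors and Robo to the actin machinery, differed by 0.29 with an SE of 0.082, while its relative Nck2 differed by -0.17 with an SE of 0.068. Rhoa, the GTPase that drives growth cone collapse, was at -0.078, -0.029, -0.051 and -0.053 in the VEGF arrays, against 0.14, 0.042, 0.019 and 0.12 in the control arrays. All VEGF arrays were below all control arrays, and the difference was -0.13 with an SE of 0.037. Rhoa and Fyn were the only pathway genes to separate completely, 2 of 34, against 6.84% of all genes. Ngef, the exchange factor ephexin that binds EphA4, differed by -0.14, Itsn1, an endocytic scaffold that works with EphB receptors, by -0.12, and the kinase Fyn, which acts below EphA and ephrin-A signals, by -0.084. The adjusted limma p lay between 0.243 and 0.372 in these 6 genes. Over 19 other settings of the fit the unadjusted p was under 0.05 in all 19 for Rhoa, in 18 for Nck1, 12 for Itsn1, 11 for Ngef, 9 for Nck2 and 6 for Fyn. These settings refit the same arrays and are not independent checks. Robo4, the Robo receptor of endothelium, differed by 0.065 (limma, adjusted p = 0.774).

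Markers of other cell types and of neighbouring tissue were read on the same arrays, from lists chosen with earlier results of these data known. At an unadjusted limma p under 0.05, 4.62% of all genes were higher and 7.84% were lower. In the list of 10 thalamus and diencephalon genes, 2 were at an unadjusted p under 0.05 and all 10 differences were above 0. The list mean lay between -0.25 and 0.71 in the VEGF arrays and between -0.33 and 0.24 in the control arrays. It was highest in VEGF 1 at 0.71, in VEGF 2 at 0.65 and in control 2 at 0.24, and lowest in control 1 at -0.33, in control 4 at -0.32 and in VEGF 4 at -0.25. Epha3, Epha5 and Epha4 were lowest in VEGF 1 and VEGF 2, and within the control group control 2 had the lowest value of all 3. The mean of 9 projection neuron genes was between -0.47 and 0.030 in the VEGF arrays and between 0.0051 and 0.25 in the control arrays, with 7 genes lower at an unadjusted p under 0.05. VEGF 1 and VEGF 2, at -0.41 and -0.47, were the lowest, and the part of that list in the Eph and ephrin values was not tested.

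When the mean of the thalamus list entered the limma fit as a covariate, Epha3 differed by -0.20, Epha5 by -0.18, Efna3 by -0.19 and Slit1 by -0.26, with unadjusted p = 0.00575, 0.00631, 0.00822 and 0.00368. The differences were -0.059 for Epha4, -0.052 for Efnb2, 0.17 for Slit2, -0.22 for Robo2 and 0.24 for Robo3, and these 5 no longer reached an unadjusted p of 0.05. VEGF 1, VEGF 2 and control 2, the arrays with the highest means of that list, were then left out. This left VEGF 3 and VEGF 4 against control 1, control 3 and control 4. On these arrays Epha3 differed by -0.31, Epha5 by -0.26, Efna3 by -0.20, Slit1 by -0.29, Robo2 by -0.37 and Efnb2 by -0.11. Each of these was at an unadjusted limma p under 0.05. Robo3, at 0.27, Slit2, at 0.34, and Epha4, at -0.070, did not reach it there (limma, unadjusted p = 0.13, 0.12 and 0.116). With the covariate 6 of 30 guidance genes were at an unadjusted p under 0.05, against 11.3% of all genes, of which 4 were among the 9 and Efnb3 and Robo1 were not. Without the 3 arrays there were 9 of 30, against 14%, of which 6 were among the original 9 and Epha6, Robo1 and Srgap1 were not. In both of these settings the adjusted limma p of the 9 genes stayed above 0.05, and both were chosen after seeing the data.

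The interneuron and ventral forebrain list had 11 genes measured. Its mean lay between -0.85 and -0.15 in the VEGF arrays and between 0.053 and 0.42 in the control arrays. Of its genes, 9 of 11 were lower at an unadjusted p under 0.05, against 7.84% of all genes. VEGF 3 had the lowest list mean, at -0.85. It was also the lowest array of 7 guidance genes, Slit1, Robo1, Robo2, Srgap1, Srgap3, Efnb3 and Ephb1, of which Slit1 and Robo2 reached an unadjusted p of 0.05. The 2 probe sets of Ephb1 were at -0.24 and -0.031 in VEGF 3. How many of all genes were lowest in VEGF 3 is not given here. The part of the interneuron list in the values of these 7 guidance genes was not tested. Radial glia markers had 4 of 9 genes higher at an unadjusted p under 0.05, against 4.62% of all genes. Their list means lay between 0.022 and 0.18 in the VEGF arrays and between -0.13 and 0.012 in the control arrays. Endothelial list means lay between -0.28 and 0.079 in the VEGF arrays and between -0.19 and 0.10 in the control arrays, and pericyte list means between -0.27 and 0.11 in the VEGF arrays and between -0.15 and 0.074 in the control arrays, with 0 of 7 pericyte genes at an unadjusted p under 0.05. In both vascular lists VEGF 3 and control 3 were the lowest arrays of their groups. At the same threshold, 5 of 7 mitosis genes, 3 of 6 erythroid genes, 1 of 7 microglia genes and 0 of 6 Cajal-Retzius genes passed. All were on the higher side, where 4.62% of all genes passed.

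**Figure D4:**
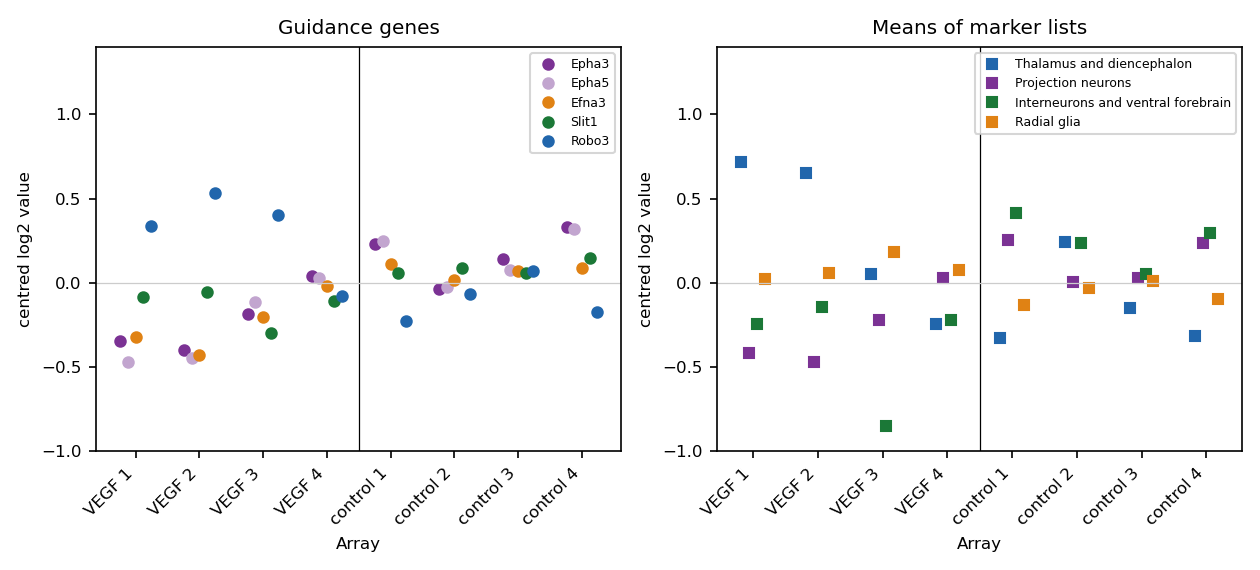
Centred log2 values of 5 guidance genes (left) and means of 4 marker lists (right) on each array, VEGF arrays first, with points shifted sideways to keep them apart. VEGF 1 and VEGF 2 have thalamus list means of 0.71 and 0.65 beside low Epha3, Epha5 and Efna3, and VEGF 3 has an interneuron list mean of -0.85 beside the lowest Slit1 value of -0.30.

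Across 19 other settings of the fit, Epha3, Epha5, Efna3 and Slit1 stayed at an unadjusted limma p under 0.05 in all 19, the methods' t-test included. Their differences ranged from -0.48 to -0.20 for Epha3, from -0.50 to -0.18 for Epha5, from -0.39 to -0.19 for Efna3 and from -0.29 to -0.17 for Slit1. Their lowest adjusted p over these settings was 0.101, 0.124, 0.0601 and 0.158, and their highest was 0.616, 0.632, 0.616 and 0.616. The other 5 genes kept their sign in all 19 settings and an unadjusted p under 0.05 in fewer of them, 17 for Robo3, 16 for Robo2, 12 for Epha4, 11 for Efnb2 and 10 for Slit2. Leaving out any one of control 1, control 3, control 4, VEGF 1 or VEGF 2 took Epha4 and Efnb2 past 0.05, and for Slit2 the same held of control 1, control 4, VEGF 1, VEGF 2 and VEGF 3.

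The share of guidance genes at an unadjusted p under 0.05 was read against that of all genes in each setting. With 1 VEGF array left out there were 6 of 30 without VEGF 1, 7 without VEGF 2, 8 without VEGF 3 and 10 without VEGF 4, against 13.6%, 10.8%, 9.57% and 14.4% of all genes. With 1 control array left out there were 5 without control 1, 9 without control 2, 7 without control 3 and 5 without control 4, against 7.65%, 9.46%, 13.3% and 8.16%. The methods' t-test gave 7 against 10.6%, the sex pattern 8 against 10.9%, array weights 10 against 13.8% and quantile normalization 9 against 11.9%. Without control 1 or control 4 the 5 genes were all among the 9 of the full set. Complete separation occurred in 8 of 30 guidance genes without control 2, against 9.86% of all genes, in 9 without VEGF 4, against 13%, and in 12 without the 3 arrays of highest thalamus list mean, against 31.9%.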

How the data were processed

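Brain cortex RNA of mouse embryos was hybridised to whole-transcript Affymetrix arrays. Affymetrix Expression Console and the build mm8 are named in the submitters' processing notes, and the series text names an unpaired t-test in GeneSpring. The sources used here give neither the background correction nor the summarisation method. The authors deposited values on a log scale, read as log2 from their range, for 28853 probe sets on 8 arrays, with probe set medians within 5e-07 of 0. No dim probe set could be filtered, signal over background is unknown, and the number of arrays limits the precision.

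Of the probe sets, 21789 had 1 symbol in the platform annotation, 1621 had more than 1 and 5443 have no name here. By Entrez identifier 21698 matched RefSeq GRCm38.p6. A gene's value is the mean of its probe sets, of which 999 of 19938 genes had more than 1. As the builds differ, coordinates are given for RefSeq sequences alone. The fit was limma 3.58.1 in R 4.3.3, on 4 VEGF and 4 control arrays with no covariate, adjusted by Benjamini-Hochberg over all genes at 0.05, and was tested on simulated data. Single values were also compared by exact two-sided permutation.

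Members, lists and tests were chosen with earlier results of these data known. Values by array are given for members whose groups do not overlap, those at an unadjusted p under 0.05 and the 6 of largest difference. Efna5, Robo1 and Srgap1 were added after their values were seen. The pathway genes named are the 6 of smallest p under 0.05. Vegfa and Robo4 were always named. Alternatives were the replicate number as a block, centring on array medians, quantiles, array weights, a robust trended prior, sex pattern, the methods' t-test, other probe set rules and leaving out each array, and those with the thalamus list were added later.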

Additional observations from a re-analysis of the deposited data

Results flagged for a closer look

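Of 60 groups of 4 arrays tested for a lone array, 2 were marked, where chance marks about 1 in 20. Slit2 in VEGF 4 was at -0.13, far below the other VEGF arrays at 0.16 to 0.19. Ephb4 in control 1 was at -0.14, far below the other control arrays at -0.010 to 0.0078.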

How the results depend on the processing

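The number of guidance genes past the adjusted test was 0 as reported and in all 19 other settings, with 9 at an unadjusted p as reported and 7 by the methods' t-test. Leaving out each array in turn gave 5 to 10 guidance genes at an unadjusted p under 0.05, with 5 without control 1 or control 4, and 1526 to 2881 of all genes. Guidance genes whose groups do not overlap numbered 2 to 9 with an array left out, with 8 without control 2 (9.86% of all genes) and 9 without VEGF 4 (13%), and 12 without the 3 arrays of highest thalamus list mean (31.9%), where fewer arrays make separation easier. Genes past the adjusted test numbered 0 to 10 with an array left out, with 10 without VEGF 4, 1 after quantile normalization and 1 without the 3 arrays of highest thalamus list mean. The Vegfa difference was -0.0052 with the mean of the thalamus list as covariate, and that of Robo4 was -0.031 with it and -0.0070 without the 3 arrays. The cause was not tested in these cases. Arrays of the same replicate number share a number alone: their deviations from the group means correlated at -0.13 to 0.454, against -0.422 to 0.518 for different numbers, and not every array correlated best with its own number. With the replicate number as a block, 9 guidance genes and 2649 of all genes were at an unadjusted p under 0.05, against 9 and 2484 without the block, and Vegfa differed by 0.053 in both. The median difference over the guidance genes lay between -0.053 and -0.021 in all settings. Centred values keep no signal over background, so what dim probes limit is unknown.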

Other observations

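Among the pathway genes, Vav3, an exchange factor that Eph receptors engage, was chosen after its values were seen. It was at 0.84, 1.05, 0.10 and -0.33 in VEGF 1 to VEGF 4, against -0.071, 0.071, -0.083 and -0.12 in control 1 to control 4. The difference was 0.46 with an SE of 0.264 (limma, adjusted p = 0.528), and it came from VEGF 1 and VEGF 2, whose thalamus list means were also the highest. The part of that list in the Vav3 values was not tested.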
